A study of Mus musculus with 12 samples.

Results

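Metallothioneins are small cysteine-rich proteins that bind zinc and copper, and Mtf1 encodes the zinc-sensing transcription factor that switches their genes on. The 5 genes described here, the metallothioneins Mt1, Mt2, Mt3 and Mt4 and Mtf1, were taken by name from the probe sets annotated to 1 gene alone. They make up 5 of the 18193 genes measured and 10 of the 45101 probe sets, a probe set being a group of short probes read together as 1 value. Mt1 had 2 probe sets, Mt2, Mt3 and Mt4 had 1 each, and Mtf1 had 5. The brightest probe set on average stood for its gene, and the others are given beside it.

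RNA of whole liver was measured on 12 Affymetrix mouse arrays in 3 groups of 4, all from C57Bl/6 mice aged 3 months. The groups were wild type without an agent, Atp7b-/- without an agent, and Atp7b-/- given supplemental zinc, so the mutant genotype is common to the untreated and the zinc-treated group, and no wild type mice received zinc. Atp7b encodes the copper pump with which hepatocytes export copper into bile. The labels state neither the dose and duration of zinc nor the nature of the Atp7b allele or the sex of the animals. The labels tie the zinc to 4 mice but do not say that each other array came from its own mouse, so a p-value here measures array-to-array spread, which may be technical in part.

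In textbook accounts, zinc that enters a liver cell binds MTF1, which then moves to the nucleus and binds metal response elements in the promoters of Mt1 and Mt2. Copper acts on the same genes largely by displacing zinc from existing metallothionein. The proteins buffer both metals and scavenge oxidants. Mt1 and Mt2 are made in most tissues and strongly in liver, Mt3 mainly in brain, and Mt4 in stratified squamous epithelium. Glucocorticoids and interleukin 6 also raise Mt1 and Mt2 in liver.

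The 4 metallothionein genes lie side by side on chromosome 8 of the RefSeq mouse annotation (build GRCm38.p6), within 43124 bases and in the order Mt4, Mt3, Mt2, Mt1. Their records run from 94137204 to 94139031 for Mt4, from 94152607 to 94154148 for Mt3, from 94172618 to 94173567 for Mt2 and from 94178883 to 94180327 for Mt1. The gap between Mt2 and Mt1 is 5315 bases. Mtf1 lies on chromosome 4, from 124802549 to 124849800. RefSeq promoter windows of 300 bases, from 250 before to 50 after a start site, were matched for 5 of the 5 genes. The 4 metallothionein windows are shown because MTF1 acts through letters of this kind. Capitals mark the core of the metal response element, searched as TGCACNC or TGCGCNC on both strands. All 4 windows are on the plus strand, at chr8:94178839-94179138 for Mt1, chr8:94172368-94172667 for Mt2, chr8:94152357-94152656 for Mt3 and chr8:94136954-94137253 for Mt4.
Mt1: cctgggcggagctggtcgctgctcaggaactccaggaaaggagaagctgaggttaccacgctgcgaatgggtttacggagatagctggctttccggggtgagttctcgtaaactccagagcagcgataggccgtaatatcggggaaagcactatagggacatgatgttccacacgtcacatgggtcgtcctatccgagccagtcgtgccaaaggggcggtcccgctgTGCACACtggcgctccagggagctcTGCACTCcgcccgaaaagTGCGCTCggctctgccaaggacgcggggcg
Mt2: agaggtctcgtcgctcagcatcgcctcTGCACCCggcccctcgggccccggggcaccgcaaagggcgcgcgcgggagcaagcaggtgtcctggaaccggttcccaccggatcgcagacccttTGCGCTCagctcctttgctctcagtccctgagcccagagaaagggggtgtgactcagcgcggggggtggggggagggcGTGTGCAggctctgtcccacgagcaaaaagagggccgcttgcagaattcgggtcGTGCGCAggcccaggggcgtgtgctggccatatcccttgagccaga
Mt3: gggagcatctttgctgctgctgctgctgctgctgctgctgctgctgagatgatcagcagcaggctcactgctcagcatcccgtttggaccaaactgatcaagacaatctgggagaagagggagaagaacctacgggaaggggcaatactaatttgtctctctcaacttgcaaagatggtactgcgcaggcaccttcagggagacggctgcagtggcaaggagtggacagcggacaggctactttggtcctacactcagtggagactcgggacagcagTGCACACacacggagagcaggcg
Mt4: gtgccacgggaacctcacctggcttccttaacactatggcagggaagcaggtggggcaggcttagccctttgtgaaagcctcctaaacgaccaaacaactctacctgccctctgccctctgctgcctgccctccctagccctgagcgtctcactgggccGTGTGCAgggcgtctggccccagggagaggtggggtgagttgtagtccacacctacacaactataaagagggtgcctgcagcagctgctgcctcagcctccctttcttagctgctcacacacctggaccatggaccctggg

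The Mt2 window held 4 matches to the metal response element core and the Mt1 window 3. Mt3 and Mt4 had 1 each, and the Mtf1 window had 0. Of the 32851 windows of all genes, 25.7% held at least 1 match, 1.97% at least 3 and 0.517% at least 4. Counted from the start site, the first bases of the Mt2 matches lay at -223, -128, -50 and 5, with the last 2 on the minus strand. In Mt1 they lay at -23, 3 and 21, all on the plus strand. The start site of the Mt1 window lies 206 bases after the start of the Mt1 gene record, so the bases before that record's start are for the most part outside the window. Bases after the window's end at 94179138, most of that record, were not searched either. The Mt1 counts and positions therefore hold for this window alone, and a motif absent from it may lie outside it. The antioxidant response element core, searched as TGACNNNGC on both strands, had 1 match, at -79 of Mt2, and none in the other 4 windows. It does not overlap a metal response element match, and 12.4% of all windows held at least 1. The E box CACGTG was found in none of the 5 windows (7.15% of all windows). The motif TGTTCT of the glucocorticoid response element was found in Mtf1 alone among the 5, on the minus strand at -223 (19.0% of all windows). A match is a run of letters and not a measured binding site.

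Levels are log2 intensities, on which a difference of 1 is a doubling. They were normalized between arrays by the submitters, and array medians lay between 5.63 and 5.71. Levels of different probe sets are not comparable as amounts of RNA. The targeted gene Atp7b had levels of 8.51 to 8.69 in wild type, 6.91 to 7.25 in untreated and 6.57 to 6.98 in zinc-treated mutants. The mean of the 5 hepatocyte markers measured, of 6 listed, was 14.2 to 14.3 on every array. Of the arrays, 3 stood apart. Zinc-treated replicates 2 and 3 had pancreatic acinar marker means of 9.95 and 7.36 over 8 of 10 listed genes measured, against 5.86 to 6.23 on the other 10 arrays, and untreated mutant replicate 1 had a median correlation with its group of 0.991 against at least 0.993 elsewhere. The difference between the 3' and 5' ends of control transcripts, a sign of RNA integrity, was 0.792 to 0.881 in untreated mutants and 0.541 to 0.784 on the other 8 arrays. Of the markers of other cell types, 5 of 6 macrophage and 3 of 6 endothelial markers fell in Atp7b-/- against wild type, and none of these rose. In the same comparison 1 of 5 cholangiocyte and 1 of 6 stellate cell markers rose, and 1 of 5 hepatocyte markers fell. Markers in the remaining lists did not pass the test given below. Of all genes, 10.3% were called lower and 14.3% higher there. In bulk liver, fewer cells of a type and less RNA per cell cannot be told apart.

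Mt1 and Mt2 rose in Atp7b-/- livers, whereas Mt3, Mt4 and Mtf1 did not pass the test. A gene passed at an adjusted p under 0.05 in limma, with Benjamini-Hochberg adjustment over all 18193 genes. Thus 2 of the 5 genes were called higher and none lower in Atp7b-/- against wild type, where 24.6% of all genes were called, 14.3% higher and 10.3% lower. None of the 5 was called in zinc-treated against untreated mutants, where 6.54% of all genes were called, 1.7% higher and 4.84% lower. None of the 5 had an unadjusted p under 0.05 in limma either, and 1, Mtf1, had one by the exact permutation test. In zinc-treated mutants against wild type the same genes, Mt1 and Mt2, were called, both higher, beside 7.62% of all genes, 4.89% higher and 2.73% lower. The last comparison shares its arrays with the others and is no independent repeat of them.

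**Figure D1:**
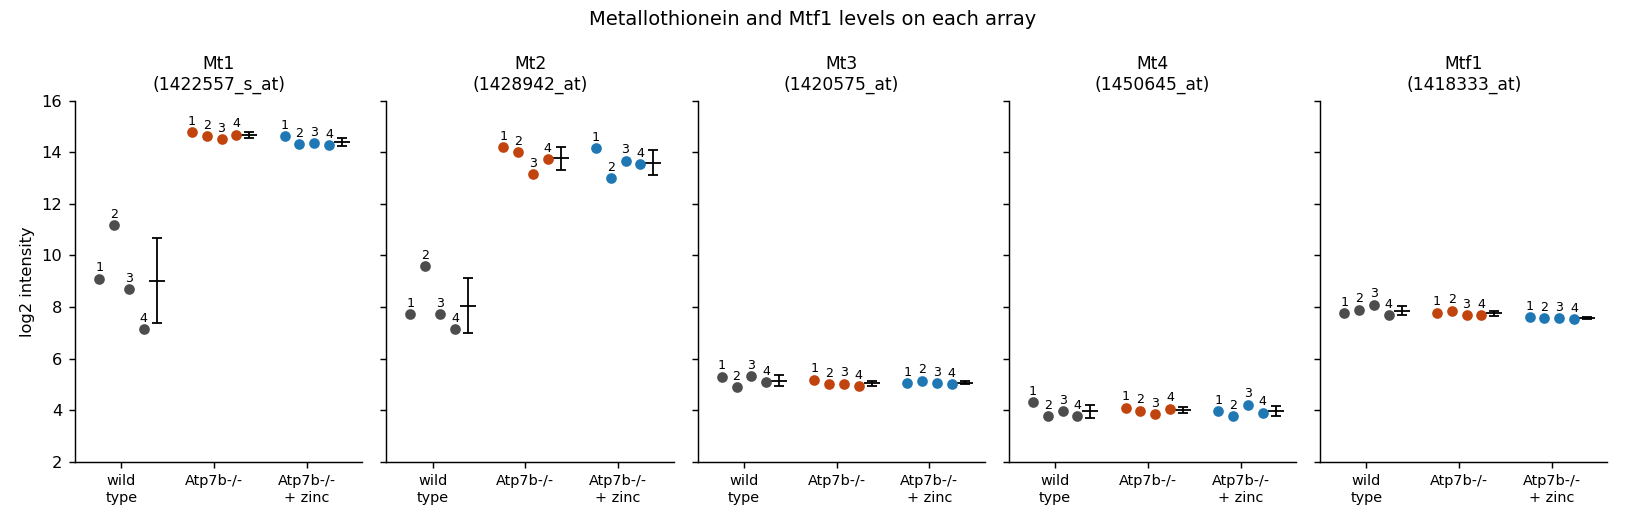
Log2 intensity of Mt1, Mt2, Mt3, Mt4 and Mtf1 on each of the 12 arrays, one panel per gene and one column of points per group. The number above a point is its replicate, and the bar with caps is the group mean ± SD (n = 4). Mt1 and Mt2 are far higher in both mutant groups than in wild type, and the wild type points are the most spread.

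Mt1 had levels of 9.10, 11.17, 8.71 and 7.14 in wild type replicates 1 to 4. In untreated Atp7b-/- they were 14.79, 14.64, 14.52 and 14.69, and with zinc 14.62, 14.33, 14.37 and 14.29. Both mutant groups lay above every wild type array, and overlapped each other. Groups did not overlap in 26.4% of all genes for Atp7b-/- against wild type. The means were 9.03 ± 1.66 in wild type, 14.7 ± 0.11 in untreated and 14.4 ± 0.15 in zinc-treated mutants (SD, n = 4 each). Untreated mutants exceeded wild type by 5.63 (95% interval 4.42 to 6.84), a 49.6-fold difference, with a limma adjusted p of 9.55e-06. Zinc-treated mutants exceeded wild type by 5.37 (4.16 to 6.59), or 41.5-fold, with an adjusted p of 4.28e-05. The zinc-treated minus untreated difference was -0.26 with an interval of -1.47 to 0.96 and an adjusted p of 0.839. A fall to 0.361 times and a rise to 1.94 times the untreated level both lie within that interval. It rests on 1 spread shared by the 3 groups, and wild type held 98.7% of the squared deviations from group means. The interval and this p therefore do not measure the spread of the mutant arrays alone.

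Among the probe sets of each array other than controls, the Mt1 probe set ranked 7, 15, 24 and 8 from the top in untreated mutants and 14, 37, 33 and 42 with zinc. In wild type its rank ran from 1586 to 13487. The top reading was 15.2 on every array, so the mutant levels lay close to the top of the scale, where intensities can respond little to more RNA. How far this affects the differences and the spread between mutant arrays was not tested. This probe set, 1422557_s_at, is also of a kind that can match more than 1 related transcript.

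The other Mt1 probe set, 1451612_at, lay lower on the scale. It read 5.18, 5.76, 5.01 and 5.38 in wild type, 10.12, 9.84, 6.54 and 9.99 in untreated mutants, and 9.69, 9.41, 8.87 and 9.17 with zinc. Again no mutant array overlapped wild type, but untreated replicate 3 sat far below its group. On the main Mt1 probe set and on that of Mt2 the same array was also the lowest of its group, by much smaller margins. The untreated minus wild type difference was 3.79 (2.51 to 5.07), or 13.8-fold, with a limma adjusted p of 0.000576 over all 45037 probe sets that are not controls. Zinc-treated mutants exceeded wild type by 3.95 (2.68 to 5.23), or 15.5-fold, with an adjusted p of 0.00142. In these fits over all probe sets, 18.8% were called in Atp7b-/- against wild type, 4.47% with zinc against untreated and 4.79% with zinc against wild type.

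The effect of zinc on 1451612_at turned with 1 array. With all arrays the zinc-treated minus untreated difference was 0.17 (-1.11 to 1.44), with an adjusted p of 0.920. Without untreated replicate 3 it was -0.70, with an adjusted p of 0.0653, and every zinc-treated array then lay below every untreated one. That array had a median correlation with its group within the range of the other arrays. Over the 8 mutant arrays the Pearson correlation between the 2 Mt1 probe sets was 0.347, given as a description.

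**Figure D2:**
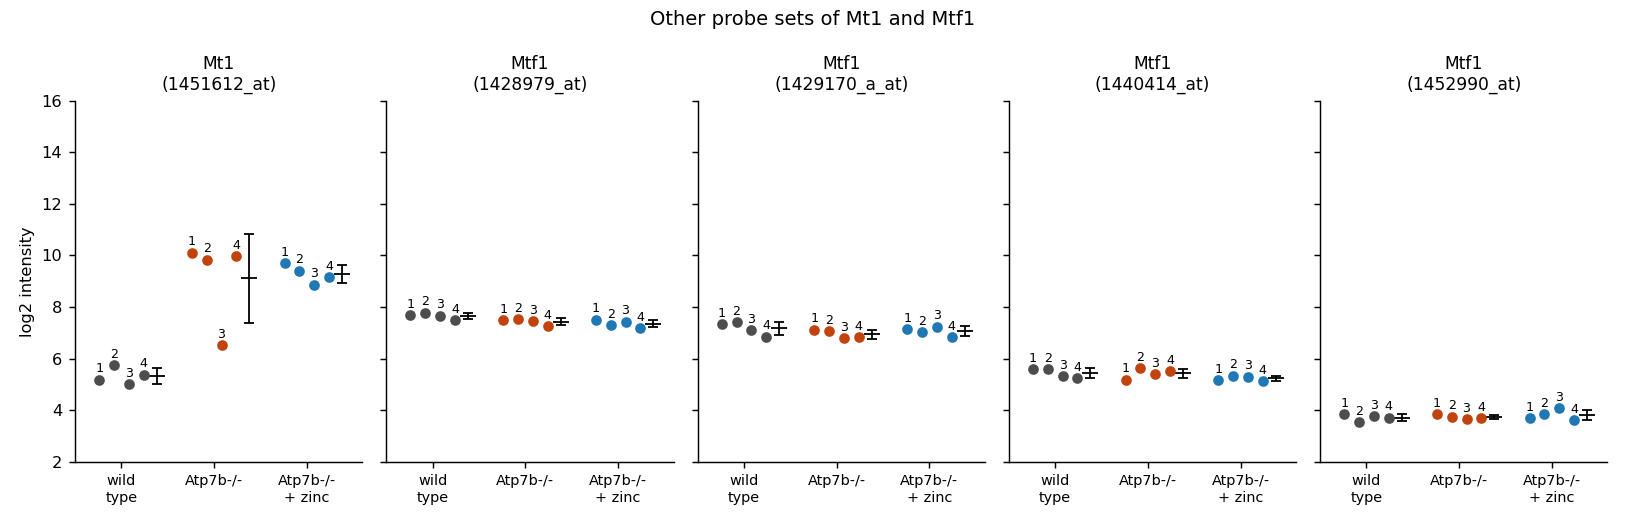
Log2 intensity on each array of the probe sets that did not stand for their gene, 1 of Mt1 and 4 of Mtf1. Numbers are replicates and bars with caps are group mean ± SD (n = 4). Untreated replicate 3 reads 6.54 on the Mt1 probe set, where the other 3 arrays of its group read 9.84 to 10.12.

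Mt2, the other liver metallothionein, had levels of 7.74, 9.59, 7.72 and 7.14 in wild type. The untreated mutants read 14.19, 14.01, 13.17 and 13.73 and the zinc-treated ones 14.16, 13.00, 13.68 and 13.56. As for Mt1, the mutant groups overlapped each other and neither overlapped wild type. The means were 8.05 ± 1.06, 13.8 ± 0.45 and 13.6 ± 0.48 (SD, n = 4 each). Untreated mutants exceeded wild type by 5.72 (4.81 to 6.64), a 52.9-fold difference, with a limma adjusted p of 5.26e-07. With zinc the difference from wild type was 5.55 (4.64 to 6.46), or 46.9-fold, with an adjusted p of 2.03e-06. The zinc-treated minus untreated difference was -0.17 (-1.09 to 0.74), with an adjusted p of 0.856. On the arrays the Mt2 probe set ranked 48, 67, 269 and 120 from the top in untreated mutants and 53, 315, 115 and 156 with zinc, lower on the scale than Mt1.

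Among the 18193 genes, Mt1 and Mt2 were within the 4 highest measured differences in Atp7b-/- against wild type and within the 3 highest in zinc-treated mutants against wild type. Their levels near the top of the scale keep their order, and their exact ranks, from being read. The median difference of all genes was -0.05 and -0.02 in these comparisons and 0.01 with zinc against untreated. On the probe sets that stood for both genes the order of the group means was wild type, zinc-treated and untreated from lowest to highest. On the other Mt1 probe set the zinc-treated mean was the highest (9.29 against 9.12 in untreated mutants), and for Mt2 the zinc-treated minus untreated difference was 0.026 without zinc-treated replicate 2. The order of the mutant groups is therefore not settled, and limma called no difference between them. Its spread is shared by all 3 groups. Wild type held 98.7% of the squared deviations from group means for Mt1 and 72.5% for Mt2. The Mt1 difference of -0.26 was larger than the SD of either mutant group, 0.11 and 0.15. Without zinc-treated replicates 2 and 3, the arrays with pancreatic transcripts, zinc-treated mutants exceeded wild type by 5.43 for Mt1 (adjusted p = 0.00197) and 5.81 for Mt2 (adjusted p = 8.83e-05) in limma. The 3' to 5' difference of control transcripts was 0.617 to 0.784 in wild type, 0.792 to 0.881 in untreated and 0.541 to 0.739 in zinc-treated mutants, and its part in the rises was not tested.

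The wild type livers differed from each other more in Mt1 and Mt2 than in nearly all other genes. The SD of Mt1 in wild type was 1.66, with 8 of the 18193 genes larger, and that of Mt2 was 1.06, with 26 larger, against a median of 0.145 over all genes. For both genes replicate 2 was the highest array, followed by replicates 1, 3 and 4. In untreated mutants the SD of Mt1 was 0.11, below the median of 0.126, although close to the top of the scale. The SD of Mt2 was 0.45 there, with 530 genes larger, and 0.48 with zinc, with 269 larger.

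**Figure D3:**
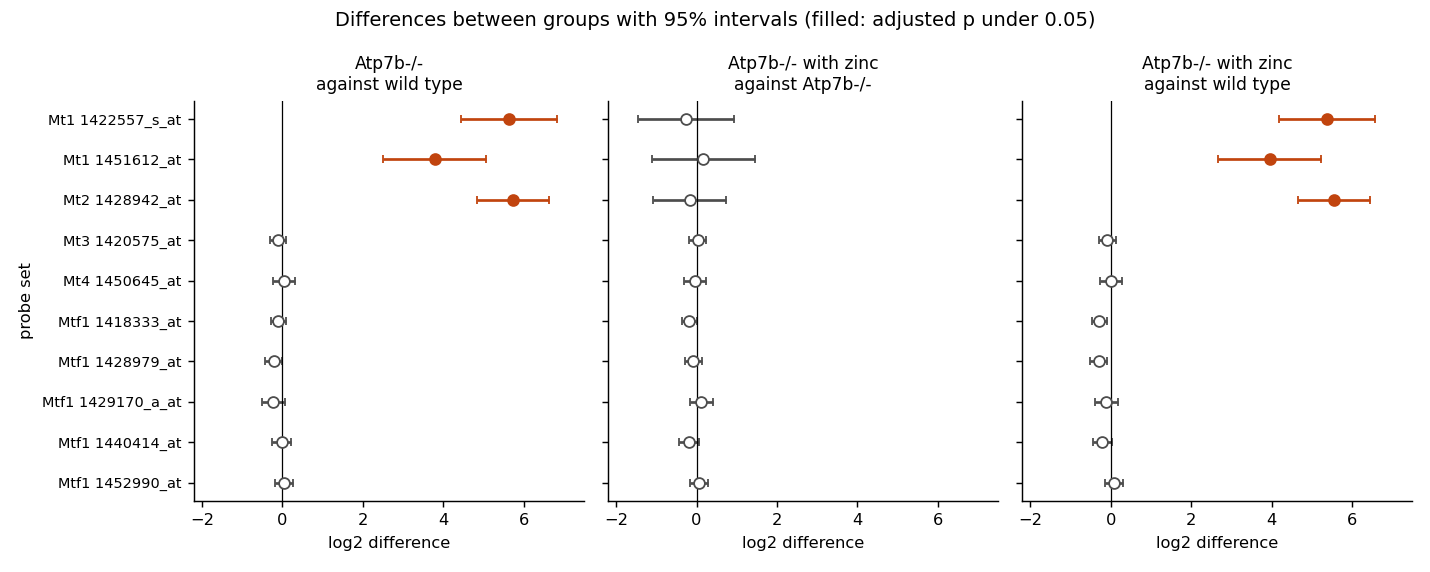
Log2 difference with its 95% interval for each of the 10 probe sets, one panel per comparison, with filled points at an adjusted p under 0.05 in the fit over all probe sets. The 3 probe sets of Mt1 and Mt2 stand between 3.79 and 5.72 in Atp7b-/- against wild type, and the other 7 lie near 0.

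Mt3, known as the brain metallothionein, had levels of 5.30, 4.90, 5.31 and 5.09 in wild type, 5.19, 5.0, 5.03 and 4.94 in untreated and 5.06, 5.15, 5.05 and 5.01 in zinc-treated mutants. All 3 groups overlapped, and every value lay below the median of its array. The differences were -0.11 (-0.32 to 0.10) for untreated mutants and -0.08 (-0.29 to 0.13) for zinc-treated mutants against wild type, and 0.03 (-0.18 to 0.24) for zinc-treated against untreated, with limma adjusted p-values of 0.423, 0.691 and 0.898. Markers of astrocytes and neurons, the known sites of Mt3, averaged 5.27 to 5.83 over 8 genes, and limma called none in any comparison, with 0, 1 and 1 at an unadjusted p under 0.05.

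Mt4, the metallothionein of stratified squamous epithelium, had levels of 4.32, 3.76, 3.96 and 3.77 in wild type, 4.10, 3.98, 3.85 and 4.06 in untreated and 3.98, 3.76, 4.22 and 3.91 in zinc-treated mutants. The groups overlapped, and the values lay between the percentiles 17.3 and 25.7 of their arrays. The differences were 0.05 (-0.23 to 0.32) and 0.01 (-0.26 to 0.29) against wild type and -0.03 (-0.31 to 0.24) for zinc-treated against untreated, with adjusted p-values of 0.811, 0.968 and 0.914 in limma. Markers of squamous epithelium averaged 5.32 to 5.68 over 8 genes, again with none called by limma and 2 at an unadjusted p under 0.05 in each comparison. At such low intensities the arrays cannot tell a weakly expressed gene from background, so for Mt3 and Mt4 the intervals bound a change in signal only.

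Mtf1, the zinc sensor itself, had levels of 7.75, 7.90, 8.09 and 7.68 in wild type, 7.78, 7.87, 7.69 and 7.69 in untreated mutants, and 7.60, 7.58, 7.58 and 7.54 with zinc. The zinc-treated arrays were the lowest 4 of the 12, below every other array, while wild type and untreated mutants overlapped. The means were 7.86 ± 0.18, 7.76 ± 0.09 and 7.58 ± 0.03 (SD, n = 4 each). None of the 3 differences passed the test in limma, whose spread is shared by all 3 groups. Wild type held 80.2% of the squared deviations of Mtf1 from its group means. The interval for zinc-treated against untreated mutants therefore does not measure the spread of those arrays alone. Untreated mutants differed from wild type by -0.10 (-0.29 to 0.09; adjusted p = 0.428). Zinc-treated mutants differed from untreated ones by -0.18 (-0.37 to 0.01; adjusted p = 0.256) and from wild type by -0.28 (-0.47 to -0.09; adjusted p = 0.0746). The exact two-sided permutation test gave an unadjusted p of 0.0286 in both zinc comparisons, the smallest that 4 arrays against 4 allow. Groups without overlap were common, at 15.3% of all genes with zinc against untreated and 14.3% with zinc against wild type.

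The SD of Mtf1 with zinc, 0.03, was smaller than that of 98.6% of all genes in the same arrays. Without wild type replicate 4 the zinc-treated minus wild type difference was -0.34, with an adjusted p of 0.0354 in limma. The other Mtf1 probe sets did not all show the pattern. For zinc-treated against untreated they gave -0.08 (1428979_at), 0.12 (1429170_a_at), -0.19 (1440414_at) and 0.06 (1452990_at), and against wild type -0.30, -0.11, -0.20 and 0.09. For untreated against wild type the values were -0.22, -0.23, -0.02 and 0.03. Thus 4 of 5 probe sets were lower with zinc than in wild type, and none of the 5 was called by limma in any comparison, with 1, 0 and 2 at an unadjusted p under 0.05. Probe set 1452990_at was dim, between the percentiles 13.0 and 21.8 of its arrays.

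The other listed targets of MTF1 moved in both directions. Of 10 listed and measured, 2 rose and 3 fell in Atp7b-/- against wild type, beside 14.3% of all genes called higher and 10.3% lower. The median difference was 0.08 against -0.05 for all genes. With zinc against untreated mutants 1 rose and none fell, with a median of 0.06, beside 1.7% and 4.84% of all genes. In zinc-treated mutants against wild type 1 rose and 1 fell, with a median of 0.08, beside 4.89% and 2.73% of all genes. Unadjusted limma p-values were under 0.05 for 6, 4 and 4 of the 10 in these comparisons, in the order given. The share of all genes with such a p was not counted. It is at least the share called, 24.6%, 6.54% and 7.62%, so such counts, here and for other lists, show no excess by themselves. The list is a compilation from general knowledge, and for several of its genes MTF1 is only one of several regulators.

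**Figure D4:**
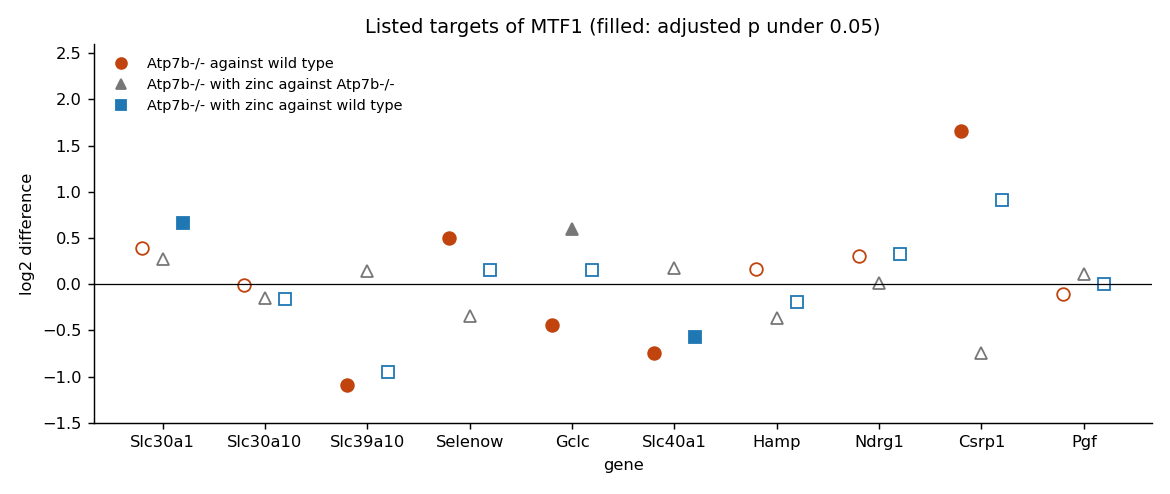
Log2 differences of the 10 listed MTF1 targets in the 3 comparisons, with filled symbols at an adjusted p under 0.05. The symbols lie on both sides of 0, and the largest rise is that of Csrp1 in Atp7b-/- against wild type, at 1.66.

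Slc30a1, the zinc exporter of the plasma membrane, read 10.35, 10.48, 10.36 and 10.12 in wild type, 11.11, 10.95, 10.33 and 10.48 in untreated and 11.34, 10.65, 10.96 and 11.03 in zinc-treated mutants. Every zinc-treated array lay above every wild type array, and the untreated mutants overlapped both groups. It rose by 0.67 in zinc-treated mutants against wild type (limma adjusted p = 0.0328), while the untreated minus wild type difference was 0.39 (adjusted p = 0.115). The call with zinc was lost at 7 of 25 other settings, among them leaving out zinc-treated replicate 1, 3 or 4 or wild type replicate 1, 3 or 4, with adjusted p-values up to 0.0899 in limma when 1 array was left out. The number of targets that rose in that comparison then ran from 0 to 2. Slc39a10, a zinc importer that MTF1 represses, read 7.35, 7.18, 7.55 and 8.20 in wild type, 5.40, 6.35, 7.47 and 6.70 in untreated and 6.31, 7.23, 6.08 and 6.86 in zinc-treated mutants. It fell by 1.09 in untreated mutants (adjusted p = 0.0477), and the groups overlapped. That value was -0.73 without untreated replicate 1, the array with the lowest level, and the call was lost there, as at 15 of 25 other settings in all.

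Csrp1, a LIM domain protein of the cytoskeleton, had levels of 6.67, 6.66, 6.59 and 6.72 in wild type. It read 9.52, 8.19, 7.39 and 8.16 in untreated mutants, all above wild type, and 7.48, 7.86, 7.61 and 7.36 with zinc. It rose by 1.66 in Atp7b-/- against wild type, and the spread among the untreated mutants, over 2 log2 units, was the widest of its groups. Selenow, a small selenoprotein, read 10.94 to 11.28 in wild type, 11.50 to 11.86 in untreated and 11.17 to 11.36 in zinc-treated mutants. It rose by 0.50 in Atp7b-/- against wild type, and the untreated mutants overlapped neither other group.

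Slc40a1, the iron exporter ferroportin, read 11.57 to 11.98 in wild type, 10.88 to 11.14 in untreated and 11.10 to 11.33 in zinc-treated mutants. It fell by 0.75 in untreated and by 0.57 in zinc-treated mutants against wild type. It is also abundant in macrophages, whose marker mean was 7.81 to 8.72 in wild type, 7.32 to 8.40 in untreated and 7.57 to 7.86 in zinc-treated mutants, and the part of those cells in the fall was not tested. Gclc, the catalytic subunit of the enzyme that starts glutathione synthesis, read 11.91, 12.12, 11.79 and 12.57 in wild type, 11.57, 11.62, 11.76 and 11.66 in untreated and 12.38, 12.14, 12.12 and 12.35 in zinc-treated mutants. It fell by 0.44 in untreated mutants (adjusted p = 0.0323) and rose by 0.60 with zinc against untreated (adjusted p = 0.0215) in limma. Without wild type replicate 4, the highest array, the first value was -0.29 and was no longer called. The rise with zinc was lost at 6 of 25 other settings, among them leaving out untreated replicate 1 or 4 or zinc-treated replicate 1 or 4 (adjusted p up to 0.0629 in limma), which left 0 targets that rose there. The number of targets that fell in Atp7b-/- against wild type was 1 in place of 3 without untreated replicate 1, 2 or 4 or without wild type replicate 4, and likewise in the fit of the 2 groups alone and with median centring.

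The remaining 4 targets passed no test. In Atp7b-/- against wild type the differences were 0.17 for Hamp, which encodes the iron hormone hepcidin, 0.31 for Ndrg1, -0.01 for Slc30a10, a manganese exporter, and -0.10 for Pgf, a growth factor of the VEGF family. Promoter windows were matched for 7 of the 10 targets. The metal response element core was matched 2 times in the windows of Slc30a1 and Selenow, 3 times in that of Slc30a10 and in 1 of 2 windows of Csrp1, and 0 times in those of Slc39a10, Hamp and Pgf. Among these windows, gene by gene, matches were found both for genes that rose and for genes that passed no test.

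Of 8 regulators that act on metallothionein promoters or on their partners, 2 rose in Atp7b-/- against wild type and none fell. The median was 0.12, and 14.3% of all genes were called higher and 10.3% lower there. Nfe2l2, the transcription factor of the antioxidant response, read 10.15, 10.55, 10.42 and 10.38 in wild type and 10.61, 11.20, 11.34 and 11.14 in untreated mutants. With zinc it read 10.47, 10.55, 10.53 and 10.24, below every untreated array and over the wild type range. It rose by 0.70 in untreated mutants and fell by 0.63 with zinc against untreated. It was the only one of the 8 called in that comparison (median -0.11), where 4.84% of all genes were called lower. That fall was lost at 6 of 25 other settings, among them leaving out untreated replicate 2, 3 or 4 or zinc-treated replicate 4 (adjusted p up to 0.0592 in limma). Keap1, which holds the NFE2L2 protein in the cytoplasm, rose by 0.26 in untreated mutants, a call lost at 5 of 25 other settings, among them leaving out untreated replicate 4 or wild type replicate 1, quantile normalization (0.17) and the mean of all its probe sets (0.16). In the same comparison the general factor Sp1 differed by 0.03, the E box factor Usf1 by -0.01, the glucocorticoid receptor gene Nr3c1 by -0.15 and Stat3, which carries the interleukin 6 signal, by 0.24, and none of these was called. None of the 8 was called in zinc-treated mutants against wild type (median 0.04), where 7.62% of all genes were called. None had an unadjusted limma p under 0.05 there. Such a p was reached by 3 of the 8 in Atp7b-/- against wild type and by 4 with zinc against untreated.

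The glucocorticoid and interleukin 6 responses, the other known inducers of liver metallothionein, showed no called gene in Atp7b-/- against wild type, where 24.6% of all genes were called. Of 8 glucocorticoid response genes the median difference was 0.11, and 1 had an unadjusted limma p under 0.05. The smallest adjusted p was that of Fkbp5, a chaperone partner of the receptor, at a difference of 0.45 (adjusted p = 0.113). With zinc against untreated mutants, Tat, the tyrosine aminotransferase, fell by 0.72 (limma adjusted p = 0.0339). It was 1 of 8 genes with a median of -0.14, beside 4.84% of all genes called lower. None was called in zinc-treated mutants against wild type (median -0.24, and 1 with an unadjusted limma p under 0.05), where 7.62% of all genes were. The Tat call was lost at 10 of 25 other settings, among them leaving out any untreated array or zinc-treated replicate 1, 2 or 3 (adjusted p up to 0.0965 in limma). With zinc against untreated, 2 of the 8 had an unadjusted limma p under 0.05. Of 12 acute phase genes under interleukin 6, none was called in any of the 3 comparisons, beside 24.6%, 6.54% and 7.62% of all genes. The medians were -0.14, -0.08 and -0.21. Unadjusted limma p-values were under 0.05 for 3, 1 and 3 of them. In wild type the SDs of Saa2, Lcn2, Saa1 and Saa3 were 2.70, 2.16, 1.92 and 1.68, so sizeable changes in these genes could go uncalled. As for Mt1 and Mt2, the highest wild type level of Saa3 was that of replicate 2, at 12.09. The members nearest to the threshold in Atp7b-/- against wild type went both ways. Hp, which encodes haptoglobin, differed by -0.23 (adjusted p = 0.0620), the acute phase protein gene Saa3 by -1.71 (adjusted p = 0.0641) and Socs3, the feedback inhibitor of interleukin 6 signalling, by 1.25 (adjusted p = 0.0676), the last with groups that did not overlap.

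Of 11 further zinc transporters, 1 rose and none fell in Atp7b-/- against wild type, namely Slc30a9, by 0.33 (median of the list 0.07). Of all genes, 14.3% were called higher and 10.3% lower in that comparison. With zinc against untreated mutants 1 fell, the importer Slc39a14, by 0.42 (limma adjusted p = 0.0464, median 0.07), beside 4.84% of all genes called lower. In zinc-treated mutants against wild type 3 rose and none fell, with a median of 0.10, beside 4.89% and 2.73% of all genes. The 3 were Slc39a4, the zinc importer of the gut lining, by 0.54 (adjusted p = 0.0134), the importer Slc39a8 by 0.48 (adjusted p = 0.0415) and Slc30a9 by 0.30 (adjusted p = 0.0393), all from limma. The calls of Slc39a14, Slc39a8 and Slc30a9 with zinc were lost at 16, 13 and 14 of 25 other settings. Unadjusted limma p-values were under 0.05 for 2, 4 and 4 of the 11 in the 3 comparisons, in the order given.

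None of the measured genes around the cluster was called higher in any comparison. Within 250 kb of the cluster the annotation holds 15 other genes, of which 8 were measured. In Atp7b-/- against wild type none rose and 1 fell, beside 14.3% of all genes called higher and 10.3% lower. The differences ran from -1.27 to 0.15. In zinc-treated mutants against wild type none rose and 1 fell, beside 4.89% and 2.73% of all genes. With 8 genes these counts do not set the locus apart from all genes. Group means of Mir138-2, Slc12a3 and Gnao1 were 4.50 to 5.36, below the median of every array. The limit given for the low intensities of Mt3 and Mt4 holds for them too. The gene that fell was Herpud1, a component of the degradation machinery of the endoplasmic reticulum. It read 12.49, 13.16, 12.92 and 12.20 in wild type, 11.82, 11.21, 11.37 and 11.30 in untreated and 12.37, 11.82, 11.64 and 11.52 in zinc-treated mutants. It fell by 1.27 in untreated and by 0.85 in zinc-treated mutants against wild type. The second call was lost at 8 of 25 other settings, among them leaving out zinc-treated replicate 2, 3 or 4 or wild type replicate 2 or 3 (adjusted p up to 0.0909 in limma). With zinc against untreated, where 6.54% of all genes were called, none of the 8 was called by limma, and none had an unadjusted p under 0.05. Against wild type 2 of the 8 had an unadjusted limma p under 0.05 in untreated and 1 in zinc-treated mutants. Mt3 and Mt4, within the cluster itself, are described above.

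**Figure D5:**
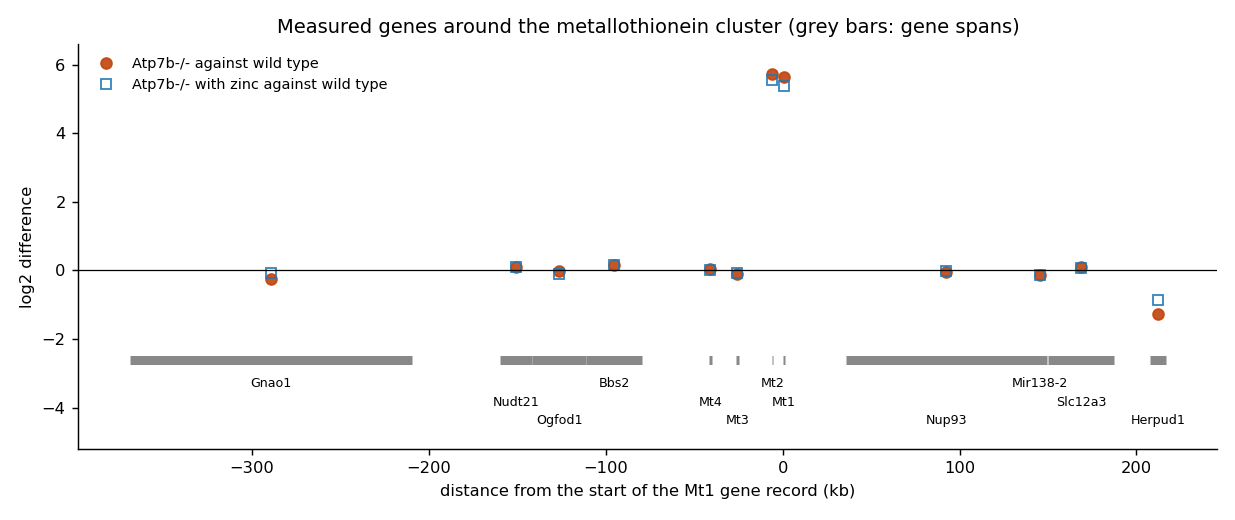
Log2 difference of the measured genes around the metallothionein cluster by distance in kb from the start of the Mt1 gene record, with one symbol per comparison and grey bars for gene spans. Mt1 and Mt2 stand above 5 in both comparisons with wild type, and Herpud1 at -1.27 is the lowest in Atp7b-/- against wild type.

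The gene most like Mt1 across the 12 arrays, among 8857 genes above the median level, was Mt2, with a Pearson correlation of 0.987. The 12 arrays form separate groups, so such values mostly restate that a gene is higher in both mutant groups, and they are given as a description. The level used to keep genes was the mean over all 12 arrays. A gene low in wild type could thus enter through the 8 mutant arrays, which favours genes higher in mutants. Over the 8 mutant arrays alone the correlation of Mt1 and Mt2 was 0.695. Next for Mt1 came Snrnp25, a protein of the minor spliceosome (0.967 over 12 arrays, 0.690 over 8), Smc2, a condensin subunit (0.967 and 0.779), Cenpw, a centromere protein (0.962 and 0.719), and Dbf4, an activator of DNA replication (0.958 and 0.326). For Mt2 the list after Mt1 was Snrnp25, Dbf4, Smc2 and Lin54, with 0.974 to 0.977 over 12 arrays and 0.141 to 0.428 over the 8. Those most like Mtf1 were Hmbox1, Znfx1, Slc37a4, Mphosph8 and Znrd1, with 0.823 to 0.885 over 12 arrays and 0.731 to 0.807 over the 8. Mtf1 itself had correlations of -0.47 with Mt1 and -0.50 with Mt2 over the 12 arrays, and of 0.763 and 0.467 over the 8 mutant arrays. The 8 mutant arrays still form 2 groups, so these values hold the difference between untreated and zinc-treated mutants. With group means taken off, Mtf1 had correlations of 0.367 with Mt1 and 0.560 with Mt2 over the 8. That of Smc2 with Mt1 was then 0.480.

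Deviations of each array from its group mean show what moved together within groups. The Pearson correlation of Mt1 and Mt2 was 0.862 over 12 arrays, 0.822 over the 8 mutant arrays and 0.674 without wild type replicates 2 and 4, the arrays farthest out. The wild type arrays held 98.7% of the squared deviation of Mt1, 72.5% of that of Mt2 and 80.2% of that of Mtf1, so these correlations weigh wild type most. The genes most like Mt1 were Ddit3, a transcription factor of the stress response (0.938), Eva1a (0.938), Thumpd3 (0.925), Smc2 (0.906) and Dpt (0.906). Without wild type replicates 2 and 4 these fell to between 0.171 and 0.303, so they rest on those arrays. Ddit3 read 8.37, 8.77, 8.29 and 7.73 in wild type, in the order of Mt1, and 6.98 to 7.25 in the mutants. The genes most like Mt2 were Saa3 (0.880, and 0.573 without those arrays), Zfp715 (0.878 and 0.821), Vnn1, a pantetheinase (0.877 and 0.635), Phf14 (0.876 and 0.834) and Mt1. For Mtf1 they were Arpc4, Cebpzos, Hic1, Ddo and Spryd3, with 0.832 to 0.925.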

How the data were processed

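The arrays are Affymetrix GeneChip Mouse 430 2.0, per the labels' protocols. The deposited values are log2 intensities per probe set, already normalized between arrays. No source used here gives the summarization or normalization method. Of 45101 probe sets, 64 are controls, 34945 are listed with 1 gene symbol, 932 with several and 9160 with none in the platform annotation, and genes were read from those with 1 symbol. The probe set with the largest mean of 12 arrays stood for each of 18193 genes. Symbols and positions came from RefSeq (GRCm38.p6).

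The members and gene lists were chosen with earlier results of these data known. The limma package (version 3.58.1, R 4.3.3) fitted 3 group means to the 12 arrays (lmFit, contrasts.fit, eBayes), with Benjamini-Hochberg adjustment over all genes within a comparison and a threshold of 0.05. A second fit covered all 45037 probe sets that are not controls. The fit over genes was tested on simulated data, and the second fit was not. Adjusted p-values come from limma. Intervals are 95% limma intervals. Named genes are the members, up to 4 genes per list by smallest adjusted p, all neighbours within 250 kb and the 5 genes most like Mt1, Mt2 and Mtf1. Slc30a10, Ndrg1, Pgf, Sp1, Usf1 and Nr3c1 are exceptions, picked once their values had been seen. Cell type markers were given as means over their lists. The number of arrays limits the precision.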

Additional observations from a re-analysis of the deposited data

Results flagged for a closer look

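On the Mt1 probe set 1451612_at, untreated Atp7b-/- replicate 3 read 6.54, while the other 3 arrays of its group read 9.84 to 10.12. The gap to the nearest array was 0.923 of the group's range, above Dixon's 95% critical value for 4 samples. Of 30 groups of 4 values examined, 1 passed that value, and chance alone passes about 1 in 20. On the main Mt1 probe set the same array read 14.52 and on the Mt2 probe set 13.17, each the lowest of its group.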

How the results depend on the processing

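All calls of Mt1 and Mt2 against wild type held at each of the 26 other settings run, with log2 differences of 3.79 to 6.34 for Mt1 and 5.42 to 6.24 for Mt2 in Atp7b-/-, and of 3.95 to 6.09 and 5.25 to 6.06 with zinc. No member was called in zinc-treated against untreated mutants by any limma setting. The values that changed sign or side there or elsewhere are given next, and the cause was not tested. Zinc-treated minus untreated, Mt1 was 0.17 with cross-hybridising types of probe set removed. For Mt2 it was 0.088 without zinc-treated replicates 2 and 3, an alternative chosen after seeing the data, and 0.23 when untreated replicate 1 was left out too. For Mt3 it was -0.0059 with quantile normalization and -0.0022 without zinc-treated replicates 2 and 3. Zinc-treated minus wild type, Mt4 was -0.0079 with array weights and -0.0089 with either set of doubted arrays left out. Mtf1 passed in both zinc comparisons, at -0.18 and -0.28, only by the exact permutation test (unadjusted p = 0.0286) and, against wild type, without wild type replicate 4 (-0.34). Mt4 was removed by the filter on dim genes.

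Leaving out 1 array at a time gave, for untreated against wild type, zinc-treated against untreated and zinc-treated against wild type in this order, 5.0 to 6.34, -0.33 to -0.21 and 4.74 to 6.09 for Mt1. For Mt2 it gave 5.42 to 6.24, -0.38 to 0.026 and 5.25 to 6.06. For Mt3 it gave -0.19 to -0.06, -0.0037 to 0.079 and -0.17 to -0.03. For Mt4 it gave -0.016 to 0.17, -0.12 to 0.035 and -0.070 to 0.14. For Mtf1 it gave -0.16 to -0.02, -0.20 to -0.14 and -0.34 to -0.20. For the Mt1 probe set 1451612_at it gave 3.46 to 4.65, -0.70 to 0.50 and 3.82 to 4.10.

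The number of genes called in Atp7b-/- against wild type was 4480, and 208 with a minimum change of 1 log2 unit. With zinc against untreated it was 1190, and 1861 with array weights, 13 with that minimum change, 689 without untreated replicate 4, 614 without zinc-treated replicates 2 and 3 and 598 without untreated replicate 1 as well. With zinc against wild type it was 1386, and 53, 699 and 881 with the minimum change and these sets left out. Higher calls made up 58.2%, 26.0% and 64.2% of calls in the 3 comparisons as deposited, 49.6%, 40.0% and 58.0% with quantile normalization and 68.1%, 19.7% and 69.1% with median centring. Same-numbered arrays of different groups had correlations of deviations of -0.13 to 0.24, and differently numbered ones of -0.22 to 0.27. Replicate numbers thus gave no sign of pairing the arrays. With the replicate number as a block, Mt1 differed by 5.63, -0.26 and 5.37 and Mt2 by 5.72, -0.17 and 5.55, no member's call changed, and 4449, 1171 and 1353 genes were called. Probes near the top of the scale (Mt1 in mutants) and near background (Mt3, Mt4) limit what differences can show.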
